A study of Mus musculus with 2 samples.

Results

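Small leucine-rich proteoglycans (SLRPs) are secreted proteins of the extracellular matrix, and 8 of their genes, Dcn, Bgn, Lum, Fmod, Prelp, Ogn, Omd and Aspn, were followed here among the 32285 genes counted. They were chosen by name as the SLRP genes of bone and joint matrix, and their levels and joint variation were measured among the stromal-like barcodes of a single-cell RNA-Seq library. The library held cells sorted as osteal macrophages (Omacs, macrophages of bone surfaces) with antibodies to CD11b, F4/80 and CD68 from femurs and vertebrae of female BALB/c mice that were ovariectomized (OVX) or sham operated at 10 weeks of age. Bones of 20 mice per condition were collected 4 weeks after surgery and pooled, the OVX pool was marked with hashtag antibody 1 and the sham pool with hashtag antibody 2, and both ran in 1 droplet reaction. OVX removes the ovaries and with them most estrogen, and no transgene, drug or knockout was used in either group. With 1 pool per condition and 1 library there were no replicates, so no test was made, and every interval below is a 95% interval for counting error only.

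SLRPs share a core of leucine-rich repeats that folds into a curved solenoid, by which most of them bind collagen fibrils and set fibril spacing and thickness. Many carry glycosaminoglycan chains: Dcn (decorin) and Bgn (biglycan) carry chondroitin or dermatan sulfate, and Lum (lumican), Fmod (fibromodulin) and Omd (osteomodulin) carry keratan sulfate. Several bind growth factors of the TGF-β and BMP families, and they are made by fibroblasts, chondrocytes, synovial cells and osteoblasts and not, as a rule, by neutrophils or macrophages.

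In the GRCm38 annotation Dcn lies on chromosome 10 from 97479609 to 97518143 and Lum 47.0 kb downstream from 97565128 to 97572703, both on the plus strand. Prelp (chromosome 1, 133910304 to 133921414, minus strand) and Fmod (134037254 to 134048277, plus strand) lie 116 kb apart. Aspn (chromosome 13, 49544443 to 49567565), Omd (49582462 to 49592822) and Ogn (49608046 to 49624501) follow each other on the plus strand with gaps of 14.9 and 15.2 kb. Bgn lies alone on chromosome X from 73483602 to 73495933 on the plus strand. The genes that are neighbours were thus Dcn with Lum, Prelp with Fmod, and Aspn with Omd and Ogn.

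The promoter sequences of 6 of the 8 genes were found in the RefSeq-based table of build GRCm38.p6, which had no entry for Dcn and Lum. The 250 bases before the start are shown for the 3 genes whose levels followed each other or Dcn most closely and for Aspn, the gene with the fewest molecules. Capitals mark 4 motifs, each searched on both strands. The first is the letters TATAAA of the TATA box. The second is CCAAT, a site of general promoter factors. The third is the GC box with the letters GGGCGG. The last, a core that SOX factors such as Sox9 bind, was searched as AACAAT, and no motif contains another.
Bgn (chrX:73483351-73483600, plus strand): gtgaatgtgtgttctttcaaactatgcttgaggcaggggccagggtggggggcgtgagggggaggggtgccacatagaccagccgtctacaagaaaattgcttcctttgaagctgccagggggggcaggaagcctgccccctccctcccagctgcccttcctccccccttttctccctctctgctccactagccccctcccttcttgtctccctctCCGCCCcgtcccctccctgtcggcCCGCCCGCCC
Prelp (chr1:133921402-133921651, minus strand): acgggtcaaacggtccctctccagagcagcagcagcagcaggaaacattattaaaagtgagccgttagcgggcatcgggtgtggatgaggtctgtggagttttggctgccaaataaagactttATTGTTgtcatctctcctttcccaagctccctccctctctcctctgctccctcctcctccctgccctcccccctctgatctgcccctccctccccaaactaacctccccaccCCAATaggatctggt
Fmod (chr1:134037004-134037253, plus strand): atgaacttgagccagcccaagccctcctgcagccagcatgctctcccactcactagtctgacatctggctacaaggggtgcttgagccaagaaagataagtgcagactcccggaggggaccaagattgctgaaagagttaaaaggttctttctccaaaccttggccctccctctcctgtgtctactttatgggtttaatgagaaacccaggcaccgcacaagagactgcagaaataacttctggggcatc
Aspn (chr13:49544193-49544442, plus strand): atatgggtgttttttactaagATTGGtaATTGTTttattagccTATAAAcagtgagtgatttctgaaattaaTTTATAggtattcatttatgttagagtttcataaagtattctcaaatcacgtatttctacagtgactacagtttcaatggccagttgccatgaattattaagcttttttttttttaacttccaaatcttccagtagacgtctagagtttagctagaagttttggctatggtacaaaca
The Bgn promoter held GGGCGG 3 times, on the minus strand and within 34 bases of the start, the last 2 matches overlapping each other. The Prelp promoter held CCAAT once and AACAAT once. The Fmod promoter held none of the 4, and the Aspn promoter held TATAAA 2 times and CCAAT and AACAAT once each, all beginning 178 bases or more before the start. Of all 32851 promoters of the same length, 12.4% held TATAAA, 33.8% CCAAT, 32.7% GGGCGG and 9.42% AACAAT. Bgn and Prelp both had 61.2% of C and T bases on the gene strand, above 95.7% of all promoters, and Fmod had 50% and Aspn 54%. G and C made up 64.4% of the Bgn, 55.6% of the Prelp, 51.2% of the Fmod and 30% of the Aspn promoter, against a median of 52.4%. The share of C and T was computed after the sequences were seen. Letters that match a motif describe the sequence only and show no binding.

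The deposited counts covered 2349 barcodes called as cells with 17681092 UMIs (unique molecular identifiers, 1 per captured RNA molecule), from 500 to 141565 per barcode with a median of 4387, where the labels give 1037 OVX and 1084 sham cells loaded. Barcodes were clustered without the 8 SLRP genes and 10 other genes of the wider family, with the number of clusters set at 6. The cluster highest in 8 fixed stromal markers held 210 barcodes, 8.94% of all, with a median of 19996.5 UMIs. The other 5 clusters (2139 barcodes, median 3993 UMIs) carried neutrophil and other leukocyte genes, with S100a8 at 102914 counts per 1000000 UMIs (CPM) and Ptprc, the gene of CD45, at 531 CPM against 728 and 5.85 CPM in the stromal-like barcodes. All 8 stromal markers had UMIs there, led by Sparc (678 CPM), Pdgfra (159 CPM; 149 to 170) and Prrx1 (113 CPM), but Col1a1 (17.0 CPM) and Col3a1 (22.3 CPM), which mark most fibroblasts, were low. Of the genes of the sort markers, Adgre1 (F4/80) had 0 UMIs, Cd68 was at 12.8 CPM and Itgam (CD11b) at 23.6 CPM, against 7.54, 71.4 and 1721 CPM in the other barcodes. The macrophage genes C1qa and C1qb had 0 UMIs.

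Several markers of joint tissue were high in the same barcodes. Of 4 fixed synovial lining markers 2 were at 10 CPM or more, namely Prg4, which encodes lubricin of the joint surface (25948 CPM), and Htra1 (371 CPM). Cd55 was at 6.39 CPM, below its 51.9 CPM in the other barcodes, and Clic5 at 4.93 CPM. Of 9 fixed chondrocyte markers 7 were at 10 CPM or more, led by Sox9 (1075 CPM), Comp (972 CPM), Col2a1 (896 CPM) and Acan (725 CPM). Of 8 osteoblast or osteocyte markers only Runx2 reached 10 CPM (13.3), and Bglap, Bglap2 and Phex had 0 UMIs. Among tendon markers Thbs4 was at 130 CPM (121 to 140) and Scx, Tnmd, Mkx and Kera were each under 4 CPM. The barcodes are called stromal-like below, and no finer cell type name is given to them.

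Dcn dominated the family. It had 90388 UMIs in the stromal-like barcodes, 16513 CPM (16405 to 16621), which made it the 6th most abundant of all genes there. It accounted for 93.4% of the 96725 UMIs of the 8 genes, so any sum over the family is in effect a measure of Dcn. Over the 210 barcodes the lowest level was 0, the median 16711 and the highest 54017 CPM, with quartiles of 10109.5 and 22625 CPM. Dcn had a UMI in 205 barcodes (97.6%; 94.5 to 99.2%), and 158 barcodes held it at 10000 CPM or more. The 5 barcodes without a Dcn UMI had from 599 to 31377 UMIs in all, and 3 of them carried endothelial markers.

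Bgn, the closest relative of Dcn, followed at 677 CPM (655 to 699) with UMIs in 180 barcodes (85.7%; 80.2 to 90.1%). Its barcode median was 511 CPM and its highest level 4208 CPM. Prelp, a proline- and arginine-rich member found in cartilage and near basement membranes, was at 235 CPM (222 to 248) in 153 barcodes (72.9%), with a median of 165 and a maximum of 1344 CPM. Fmod, which takes part in collagen cross-linking, was at 171 CPM (160.0 to 182) in 119 barcodes (56.7%), with a median of 44.7 and a maximum of 3240 CPM. The intervals of these 4 genes did not overlap, and their order was the same with equal weight per barcode (16475 CPM for Dcn, 657 for Bgn, 238 for Prelp and 175 for Fmod).

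The other 4 genes were sparse. Lum was at 53.5 CPM (47.6 to 60.0) from 293 UMIs in 37 barcodes (17.6%), Omd, a protein of mineralized bone matrix, at 12.1 CPM (9.33 to 15.3) in 29 barcodes, and Ogn (osteoglycin) at 7.31 CPM (5.22 to 9.95) in 30 barcodes. Aspn (asporin), a relative of Dcn that binds collagen and TGF-β, was at 2.19 CPM (1.13 to 3.83) from 12 UMIs in 10 barcodes. The median barcode held no UMI of any of the 4. The intervals of Omd and Ogn overlapped, so their order was not resolved, and Aspn lay below both. For scale, the median over the 16349 genes with a UMI in these barcodes was 7.49 CPM. UMIs of a 3′ kit count molecules, so levels were not divided by transcript length, although capture may differ between genes.

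**Figure D1:**
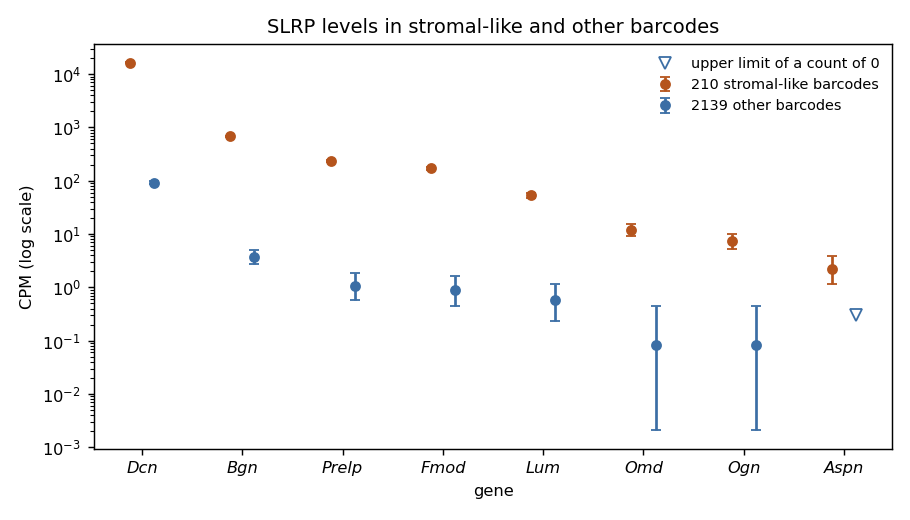
CPM on a log axis for each SLRP gene in the 210 stromal-like barcodes (orange) and in the 2139 other barcodes (blue), with points for the level over summed UMIs and bars for exact 95% Poisson intervals. Stromal-like levels run from 16513 CPM for Dcn to 2.19 CPM for Aspn, and the open triangle is the upper limit for Aspn, which had 0 UMIs in the other barcodes.

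Each member was far higher in the stromal-like barcodes than in the rest of the library. Of the 1554 genes at 100 CPM or more in stromal-like barcodes, 317 (20.4%) were at least 10-fold higher there, and all 4 members in that range (Dcn, Bgn, Prelp and Fmod) were among them. The range was set by the stromal-like level itself and left out the 4 sparse members, so this count is a description only. Dcn was at 91.3 CPM (86.1 to 96.9) in the other barcodes, a ratio of 181 (170.4 to 192), and the ratio was 184 (137 to 252) for Bgn, 189.6 (105 to 381) for Fmod and 221 (129 to 416) for Prelp. These sizes depend on how the barcodes were chosen: with at least 10 stromal marker UMIs, and more of these than of leukocyte marker UMIs, in place of clustering (140 barcodes), the ratios were 21.6 for Dcn, 27.5 for Bgn, 35.2 for Fmod, 22.6 for Prelp and 8.07 for Lum. Stromal-like barcodes that missed this cut then counted among the other barcodes. The summed SLRP level in the chosen barcodes changed little, from 17670 CPM by clustering to 17984 CPM. By clustering, Lum (7 UMIs in the other barcodes) had a ratio of 93.3 (44.7 to 234). Ogn and Omd had 1 UMI each in the other barcodes, with ratios of 89.2 (15.1 to 3610.4) and 147 (25.5 to 5901) that are known only to these intervals. Aspn had 12 UMIs in stromal-like and 0 in other barcodes, at least 8.92-fold higher when the other barcodes are set at a floor of 3 UMIs in all. The clusters themselves were made from the expression of these barcodes, so the ratios describe where the transcripts lay.

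For Dcn, Bgn, Fmod and Prelp, the few UMIs outside the stromal-like barcodes kept similar proportions. The level in other barcodes was 0.553% of the stromal-like level for Dcn, 0.545% for Bgn, 0.528% for Fmod and 0.453% for Prelp. It was 1.07% for Lum on 7 UMIs, 1.12% for Ogn and 0.679% for Omd on 1 UMI each, and 0 for Aspn. Other genes of the same barcodes gave 0.359% (Prg4), 0.571% (Sox9), 0.633% (Acan), 0.783% (Comp), 0.825% (Mgp) and 0.902% (Mmp3). Dcn lay between 66.6 and 139 CPM in each of the 5 other clusters. It had a UMI in 36.7% (34.7 to 38.8%) of the other barcodes, and in 10.4% once each barcode was thinned to 1000 UMIs, against 97.6% and 93.4% of the stromal-like ones, at median depths of 3993 and 19996.5 UMIs. Thinning left out 12 stromal-like and 159 other barcodes that were shallower. Detection in the other barcodes was therefore not read as expression.

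Most stromal-like barcodes held several members at once. By all UMIs, 67 barcodes (31.9%) held 4 of the 8 genes, 45 held 3, 39 held 5, 13 held 6 and 4 held 7, and no barcode held all 8. When 181 barcodes were thinned to 5000 UMIs each, 72 (39.8%) held 3 members and 45 (24.9%) held 4. Dcn, Bgn and Prelp were then found in 96.7%, 81.8% and 55.8% of barcodes, Fmod in 33.1%, Lum in 9.94%, and Omd, Ogn and Aspn in under 4% each.

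Spread over barcodes differed strongly between members. After thinning to 5000 UMIs, Prelp had a ratio of variance to mean of 1.81, where 1 is the value of pure counting, against 4.61 for Bgn, 4.03 for Fmod, 9.04 for Lum and 28.02 for Dcn, whose mean of 83.6 UMIs per barcode is far higher and by itself leaves more room above 1. The 5 barcodes with the most UMIs of a gene held 11.8% of all Prelp, 12.9% of Dcn and 14.5% of Bgn UMIs, but 30.5% of Fmod, 47.0% of Omd and 70.0% of Lum UMIs. By this share, taken without thinning, Prelp UMIs were the least and Lum UMIs the most concentrated of the 8, with Prelp close to Dcn. The ratio of variance to mean gave another order. It was lower than that of Prelp for the sparse Omd (1.63), Ogn (1.21) and Aspn (0.983). Over 5 ranges of depth, Dcn lay between 14565 and 17664 CPM and Prelp between 205 and 266 CPM. Bgn was at 308 CPM in the 20 barcodes under 2000 UMIs and between 595 and 757 CPM in the deeper ranges. Fmod ranged from 74.1 CPM (2000 to 10000 UMIs, 22 barcodes) to 256 CPM (under 2000 UMIs), Lum from 0 to 256 CPM and Omd from 0 to 51.3 CPM in the same 2 ranges. The 20 shallowest barcodes hold few UMIs of any member but Dcn, and no interval was computed by depth. No change with depth is therefore read for Bgn, Fmod, Lum or Omd.

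**Figure D2:**
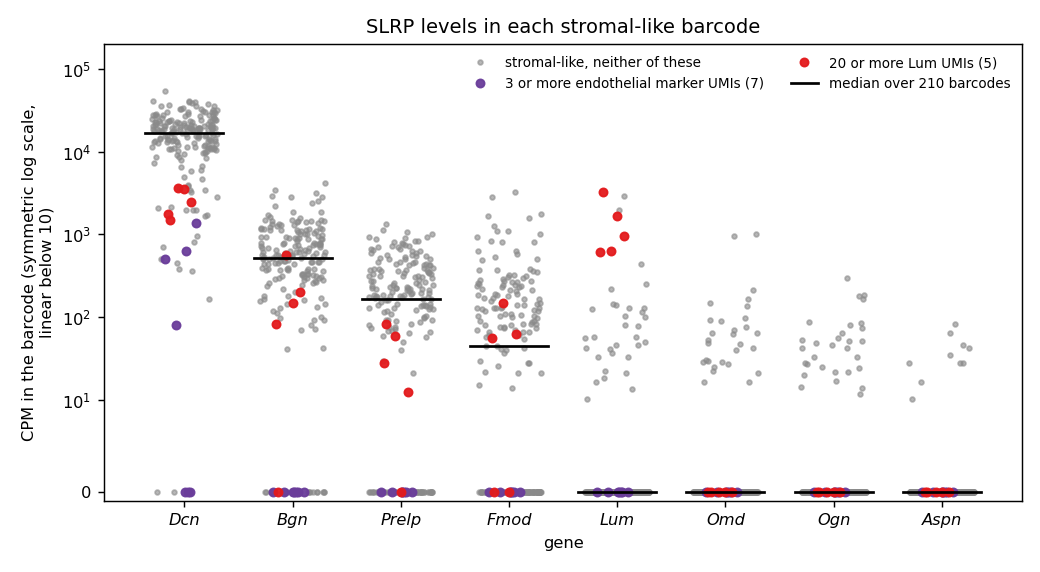
CPM of each SLRP gene in each of the 210 stromal-like barcodes, on a symmetric log axis that is linear below 10. Black lines are medians (16711 CPM for Dcn, 0 for Lum, Omd, Ogn and Aspn), purple points are the 7 barcodes with endothelial markers, which have almost no SLRP UMIs, and red points are the 5 barcodes rich in Lum, which lie under the Dcn median.

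A small set of barcodes with endothelial markers nearly lacked the family. These 7 barcodes had 3 or more UMIs over the endothelial markers Pecam1, Cdh5, Kdr, Emcn and Tie1 (from 5 to 202 UMIs), were between 734 and 31377 UMIs deep, and held 4 Dcn UMIs together, 55.8 CPM (15.2 to 143), with 0 UMIs of the other 7 members. Prg4 was at 69.8 CPM in them. This interval includes the 66.6 to 139 CPM of the other clusters. Without these barcodes Dcn was at 16731 CPM and Bgn at 686 CPM. Low Dcn was not confined to them: of the 16 stromal-like barcodes under 1000 CPM of Dcn, 6 carried endothelial markers.

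Lum came from a different small set of barcodes. Of its 293 UMIs, 205 (70.0%) lay in the 5 barcodes with at least 20 Lum UMIs, which held 77, 45, 40, 22 and 21 Lum UMIs, where the next highest barcode held 11. In these 5 barcodes Lum was at 1080 CPM (938 to 1239), and Dcn was at 2620 CPM (2394 to 2860) against 17012 CPM (16901 to 17123) in the other 205. Prelp was at 26.4 CPM (8.56 to 61.5) against 243 CPM (229.5 to 256), and Bgn at 221 CPM (160 to 299) against 693 CPM (671 to 716). Of the genes that mark the majority, Prg4 was at 601 CPM against 26858, and Comp at 42.2 against 1006 CPM. Mmp3 was at 13045 against 30250 CPM, and Col6a3 was higher (1571 CPM; 1397 to 1760, against 814 CPM; 790 to 839). Sox9 was at 880 against 1082 CPM, but 118 of its 167 UMIs lay in the deepest of the 5 barcodes, and it was at 449 CPM (332 to 594) in the other 4. Without that barcode Col6a3 was at 1137 CPM (946 to 1356) and Dcn at 2724 CPM. The 5 barcodes were not alike. The one with 45 Lum UMIs held only 2 Col6a3 UMIs among 26976, and 85 of the 114 Prg4 UMIs lay in the one with 21 Lum UMIs. Outside the 5 barcodes Lum was at 16.7 CPM (13.4 to 20.5). The 5 were picked by their Lum UMIs after the values were seen, so the Lum level itself is no result. Shallow barcodes could not enter the set, and 2 of them with 688 and 1543 UMIs held 2 and 3 Lum UMIs beside 4 and 3 Dcn UMIs.

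Fmod and Omd each had a barcode of their own. The barcode with the most Fmod held 101 of the 935 Fmod UMIs (10.8%) and 180 of the 3704 Bgn UMIs (4.86%), but only 43 Dcn UMIs among 61360. It also held 58 of the Col1a2 UMIs (24.9% of those in stromal-like barcodes), 14 Col3a1 and 49 Pdgfra UMIs. The barcode with the most Omd held 15 of the 66 Omd UMIs (22.7%) in a total of 15638 UMIs, together with 285 Dcn UMIs. Both were chosen by their highest counts and serve as a description of how the sums arose.

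Joint variation was measured as the Spearman rank correlation (rho) across the 181 barcodes of at least 5000 UMIs, each thinned to 5000 UMIs so that depth did not differ between them. All points come from 1 library and 1 droplet reaction, and rho is given as a description. Dcn, Bgn and Prelp varied together over barcodes. The rho was 0.43 for Dcn and Prelp, 0.41 for Dcn and Bgn and 0.37 for Bgn and Prelp. These lay at or above percentile 99.95 of the 4757070 pairs among the 3085 genes found in at least 20% of the thinned barcodes, whose median rho was 0.00459 with 90% of pairs between -0.12 and 0.14. Those pairs were not matched to Dcn, Bgn and Prelp for abundance, so the percentile is a description only. Fmod had a rho of 0.26 with Bgn. Its values with Dcn (0.10) and Prelp (0.096) lay within the range of 90% of all pairs, and both were near 0 in sham barcodes alone (0.0053 and -0.00035). Fmod and Prelp had 0.085 without the endothelial marker barcodes, but 0.23 in OVX barcodes alone and 0.24 thinned to 10000 UMIs. The value of that pair moved with the setting, and no relation is read from either pair. Over the 6 pairs of these 4 genes, the only members that passed the 20% limit, the median rho was 0.32.

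**Figure D3:**
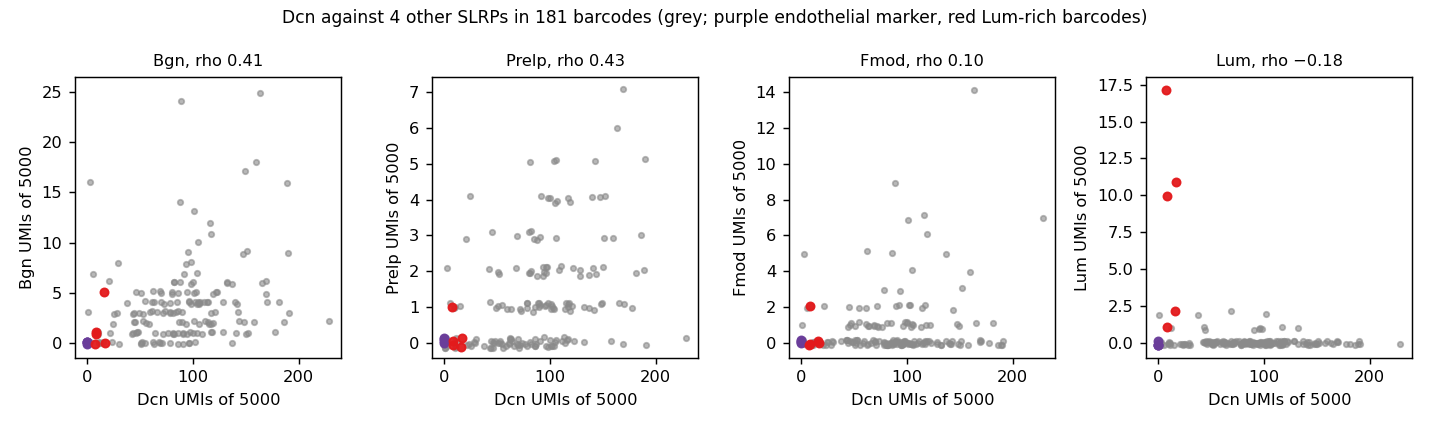
UMIs of Bgn, Prelp, Fmod and Lum against UMIs of Dcn in 181 stromal-like barcodes thinned to 5000 UMIs each, with points moved vertically by up to 0.15 so that they can be seen. Bgn and Prelp rise with Dcn (rho 0.41 and 0.43), Fmod has a rho of 0.10, within the range of most gene pairs, and the barcodes rich in Lum (red) and those with endothelial markers (purple) sit at the low end of Dcn.

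Of these relations that of Dcn and Bgn changed least when the barcodes that stood apart were left out, and those with Prelp were lower without them. Without both the endothelial marker and the Lum-rich barcodes (172 left), the rho was 0.46 for Dcn and Bgn, 0.28 for Dcn and Prelp and 0.23 for Bgn and Prelp. In OVX barcodes alone (37) the 3 values were 0.39, 0.42 and 0.23, and in sham barcodes alone (51) 0.51, 0.51 and 0.38. Another random draw in the thinning gave 0.49, 0.47 and 0.39. Thinned to 2000 UMIs, where Prelp is often missed, the 3 values were 0.38, 0.17 and 0.14.

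Over all 28 pairs of the 8 members the median rho was -0.027, and 0.093 with another random draw, where most pairs include a gene found in fewer than 20% of barcodes, so this median carries no weight. Lum had negative values with Dcn (-0.18), Prelp (-0.17) and Bgn (-0.083), with 18 Lum-positive barcodes behind them. Lum shared no thinned barcode with Ogn, Omd or Aspn, which had 7, 7 and 4 positive barcodes, too few to read an exclusion from. Omd had values from -0.067 to 0.12 with the other members and Ogn from -0.067 to 0.067, on 7 positive barcodes each. For the 4 pairs of neighbours on a chromosome the rho was -0.18 (Dcn and Lum), 0.096 (Prelp and Fmod), -0.030 (Aspn and Omd) and -0.040 (Omd and Ogn), the last 2 on 7 or fewer positive barcodes per gene.

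**Figure D4:**
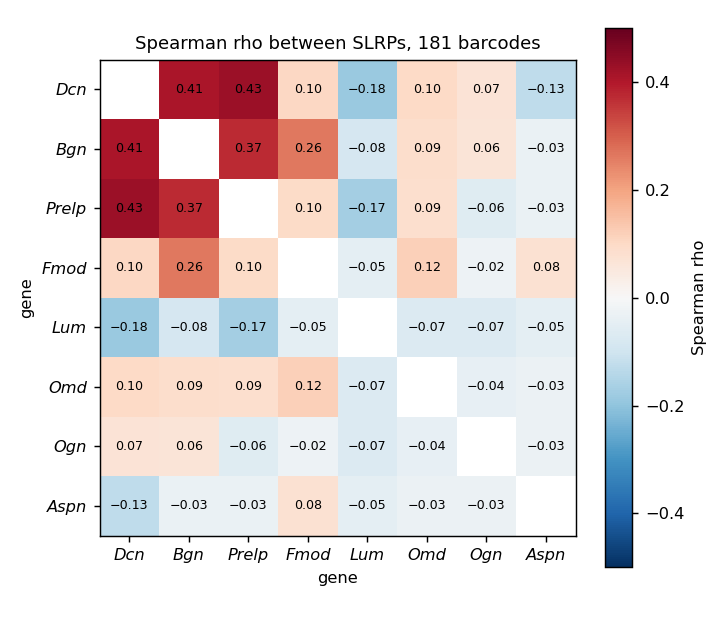
Spearman rho between the 8 SLRP genes over 181 stromal-like barcodes thinned to 5000 UMIs, from blue (negative) to red (positive). Dcn, Bgn and Prelp form the warm block at 0.37 to 0.43, Fmod is at 0.26 with Bgn, and Lum is negative with every other member.

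Outside the family, the genes most like Dcn were Atox1, a copper chaperone (rho 0.50), Nos2, the inducible nitric oxide synthase (0.49), and Clu, the secreted chaperone clusterin (0.45). Bgn was most like Comp, the cartilage oligomeric matrix protein (0.46), Dcn (0.41) and Nos2 (0.40). Prelp was most like Dcn (0.43), Comp (0.43) and Acan, the core protein of aggrecan (0.39). Fmod was most like Prdx4 (0.27), Ecrg4 (0.27) and Bgn (0.26). For the sum of the 8, which is nearly Dcn, Cp (0.43) and Chad (0.42) followed Atox1, Nos2 and Clu, and the lowest were Set (-0.38), Pabpc1 (-0.38), Ncl (-0.34), Hnrnpf (-0.33) and Baz1a (-0.31), genes of chromatin and RNA handling. The sparse members gave Ptgs2, Ctps and Ap2m1 for Lum (0.27 to 0.29), Sf3a3, Sdha and Ppp1r2 for Ogn (0.24 to 0.28), Crtc3, Atxn10 and Wif1 for Omd (0.24 to 0.25) and Rap2b, Ubl3 and 2610001J05Rik for Aspn (0.25 to 0.30), on 18, 7, 7 and 4 positive barcodes.

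The stromal-like barcodes were also split into 3 groups by clustering, again without the 8 SLRP genes and the 10 others of the wider family. Group 1 (88 barcodes; led by Ctla2a, Mmp13, Fabp4, Lum and Thbs4) held all 7 endothelial marker barcodes and all 5 barcodes rich in Lum. Group 2 (57 barcodes; Cxcl5, Ecm1, Ccl2, Csf2 and Ccl7) had the chemokine genes Cxcl5, Ccl2 and Ccl7 among its leading genes, and group 3 (65 barcodes; Saa1, Saa2, 1520401A03Rik, Camp and Chil1) the serum amyloid genes Saa1 and Saa2. Median depths were 18968, 21676 and 20523 UMIs.

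Dcn was at 13338 CPM (13190 to 13487) in group 1, 17341 CPM (17136 to 17547) in group 2 and 20419 CPM (20195 to 20644) in group 3, with barcode medians of 11810, 16998 and 20416 CPM. Prelp followed the same order at 141 (126 to 157), 232 (209 to 257) and 379.5 CPM (350 to 411). Bgn was at 438 CPM (411 to 466) in group 1 and at 830 (786 to 876) and 878 CPM (832 to 926) in groups 2 and 3, whose intervals overlap. Fmod was highest in group 2 at 269 CPM (244 to 296), against 123 and 142 CPM, but its barcode median there was 39.5 CPM, below the 58.6 CPM of group 1, so its sum rested on few barcodes. Omd was at 22.4 CPM (15.6 to 31.2) in group 3, 10.7 CPM in group 1 and 3.79 CPM in group 2. Lum was at 110 CPM (97.2 to 125) in group 1 and at 15.8 and 7.05 CPM in groups 2 and 3. Of the 9 chondrocyte markers, Comp (235, 1126 and 1919 CPM in groups 1 to 3) and Sox9 (765, 820 and 1798 CPM) had the order of Dcn and Prelp, and the other 7 did not. Group 2 was the lowest for Acan (765, 493 and 901 CPM), Col2a1 (1323, 490.4 and 667 CPM), Cnmd, Hapln1 and Col9a2, and Matn3 and Col9a1 were under 3 CPM in each group. Prg4 stood at 32937, 23253 and 18232 CPM. Within each group taken alone the median rho of the 6 pairs was 0.27, 0.38 and 0.26 (72, 49 and 60 barcodes). Single pairs were lower in some groups than over all barcodes, with 0.25 for Dcn and Bgn in group 1, and 0.27 for Dcn and Prelp and 0.25 for Bgn and Prelp in group 3. Fmod and Prelp had 0.37, 0.21 and 0.093 in groups 1 to 3. With 4 groups in place of 3, a group of 26 barcodes held all 7 endothelial marker and all 5 Lum-rich barcodes. Dcn was at 4483, Bgn at 288 and Prelp at 19.3 CPM in it. In the others (66, 53 and 65 barcodes) Dcn was at 16191, 17657 and 20292 CPM and Prelp at 189, 230 and 378 CPM. Differences between those were smaller.

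The study asked how OVX changes the sorted cells, and the same question was put to the SLRP genes. Hashtag counts (HTODemux) gave 38 stromal-like barcodes to OVX and 54 to sham, while 112 passed the cutoff for neither hashtag and 6 for both. The Dcn level was 16089 CPM (15871 to 16309) in the OVX barcodes against 15045 CPM (14856 to 15236) in the sham barcodes, a ratio of 1.07. Over OVX barcodes the lowest level was 0, the median 17085 and the highest 37563 CPM, and over sham barcodes 0, 13487 and 41019 CPM. The spread between barcodes of either condition was thus far larger than the difference in their sums. Bgn was at 609.7 (568 to 654) and 513 CPM (478 to 549), a ratio of 1.19, and Fmod at 146 (126 to 168) and 111 CPM (95.3 to 129), a ratio of 1.32. Prelp was at 193 (170 to 219) and 235 CPM (212 to 260), a ratio of 0.82. Over the 1725 genes that reached 100 CPM in at least 1 condition the median ratio was 0.946. The 112 barcodes of neither hashtag had Dcn at 17799.5 CPM (17632 to 17969), Bgn at 815 CPM (779 to 852), Fmod at 232 CPM (213 to 252) and Prelp at 255 CPM (235 to 276), each above both conditions in its sum.

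A ratio of 1.5 or more was reached by Lum alone among the 5 members at 100 CPM or more in either condition, where 3.94% of 1725 such genes were higher in OVX and 4.35% lower by that factor. The Lum level was 129 CPM (110 to 150) for OVX against 34.3 CPM (25.8 to 44.7) for sham, a ratio of 3.76. Lum met the limit of 100 CPM through OVX only. Omd, Ogn and Aspn, under that limit in both conditions, had ratios of 3.41, 2.48 and 2.48 on few UMIs. Fmod passed the factor of 1.5 (1.62) without the 10 deepest stromal-like barcodes. Of the 167 Lum UMIs in OVX barcodes, 143 lay in 3 of the barcodes rich in Lum. Without the barcodes rich in Lum the OVX level of Lum was 20.8 CPM and its sham level 21.1 CPM, a ratio of 0.99. Omd had 22 UMIs in OVX (17.0 CPM; 10.7 to 25.7) and 8 in sham (4.99 CPM; 2.15 to 9.83), and 15 of the 22 lay in 1 barcode. Ogn had 12 and 6 UMIs and Aspn 2 and 1, with overlapping intervals, so no difference was detectable for them at this depth.

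The direction of the other members depended on how barcodes were given to a condition. A second rule took the hashtag with 80% or more of a barcode's hashtag UMIs, given 10 or more, which made 28 barcodes OVX and 113 sham. By HTODemux the median count of hashtag 2 was 4732.5 in sham barcodes, 310.5 in those of neither hashtag and 310 in OVX barcodes. In the sham barcodes of the second rule it was 1722. The second rule was thus looser for sham, and the 2 rules are not equally strict. The Dcn level was then 15208 CPM (14965 to 15454) for OVX against 16201 CPM (16059 to 16344) for sham, a ratio of 0.94, and Bgn stood at 569 against 680.1 CPM, a ratio of 0.84. Fmod (108 CPM; 88.2 to 130, against 179.5 CPM; 165 to 195) and Prelp (158 CPM; 135 to 185, against 243 CPM; 225 to 261) were lower in OVX by more than 1.5-fold, where 3.71% of 1699 genes were, and Lum was higher (123 and 23.7 CPM), where 3.35% were. Dcn, Bgn and Fmod changed direction between the rules. The Prelp ratio was below 1 by both, but by HTODemux it was 1.07 without the 10 deepest stromal-like barcodes and 1.03 with equal weight per barcode. The Lum ratio was above 1 by both, but by HTODemux it was 0.99 without the few Lum-rich barcodes. None of Dcn, Bgn, Fmod, Prelp and Lum thus had a direction that held in every alternative. Omd, Ogn and Aspn had ratios of 1.66, 1.09 and 0.78 by hashtag share, on few UMIs. Not all alternatives were run for these sparse members. Within groups of barcodes (HTODemux), the OVX and sham levels of Dcn were 14472 (14204 to 14744) and 9586 CPM (9343 to 9835) in group 1, 17168 and 17658 CPM in group 2, and 19317 and 19542 CPM in group 3. The higher OVX sum of Dcn was thus found in group 1. Other members differed: OVX was higher for Bgn mainly in group 2 (845 CPM; 726 to 977, against 442; 390 to 499). For Fmod it was higher mainly in group 3 (240 CPM; 189 to 301, against 94.1; 66.6 to 129). Group 1 holds the endothelial marker and Lum-rich barcodes. Over all groups the Dcn ratio was 1.16 without both sets. No ratio without them was computed for group 1, so their part in its difference was not tested. The summed level of the 9 neutrophil markers differed by condition as well (HTODemux), at 4326 CPM over OVX against 1859.7 CPM over sham stromal-like barcodes. Most of it came from S100a9 (1779.5 against 910 CPM), S100a8 (1519.9 against 568 CPM) and Camp (714 against 120 CPM), a leading gene of group 3. Of the 9, only Retnlg was lower in OVX (132 against 141 CPM), and Ngp differed little (52.5 against 46.8 CPM). The part of free RNA and of barcodes with RNA of more than 1 cell in these ratios was not tested.

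**Figure D5:**
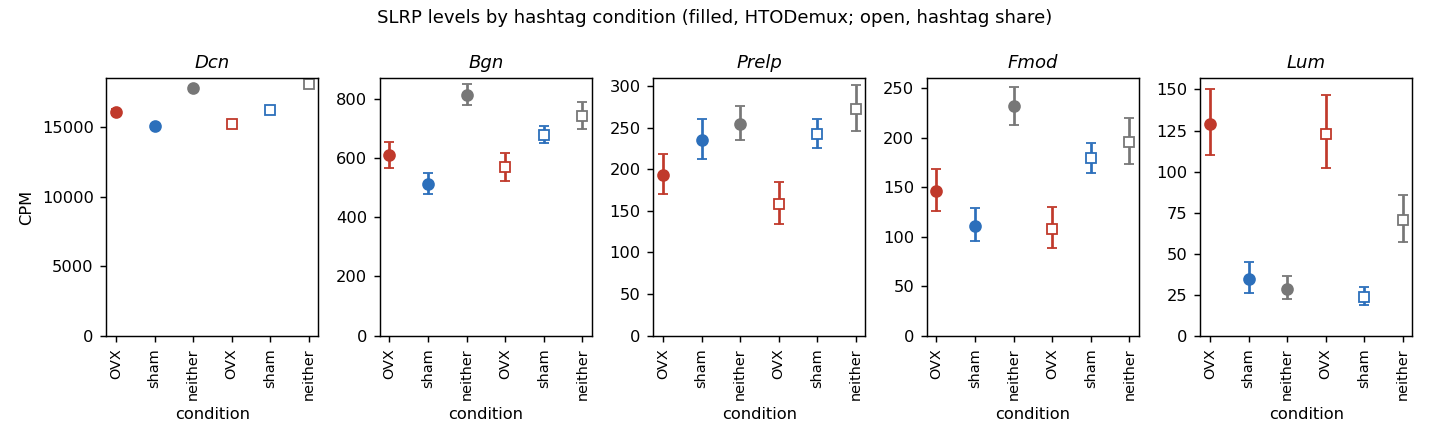
CPM of 5 SLRP genes in stromal-like barcodes given to OVX (red), sham (blue) or neither (grey) by HTODemux (filled circles) and by hashtag share (open squares), with exact 95% Poisson intervals. Dcn, Bgn and Fmod are higher in OVX by HTODemux and lower in OVX by hashtag share, and Lum is higher by both. Prelp is lower in OVX by both rules as summed here, but its ratio is 1.07 without the 10 deepest barcodes and 1.03 with equal weight per barcode.

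Of 10 other genes of the wider family, 8 had a UMI in stromal-like barcodes and 4 reached 10 CPM. Chad (chondroadherin, a cartilage member without glycosaminoglycan chains) was by far the highest at 607 CPM (586 to 628), close to Bgn and above Prelp and Fmod, in 62.9% of barcodes. Ecm2 was at 25.8, Chadl at 14.98 and Tsku at 11.1 CPM. Kera, Epyc and Optc, members of cornea, growth cartilage and eye, had 2, 13 and 5 UMIs.

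The enzymes that build the chains were present at low levels. All 7 genes of the linker region had UMIs and 5 were at 10 CPM or more, led by the xylosyltransferase gene Xylt1 (305 CPM; 291 to 320), which starts the chain, whereas Xylt2 was at 2.56 CPM. Of 16 genes of chondroitin and dermatan sulfate, 15 were detected and 11 reached 10 CPM. Chst11, a 4-O-sulfotransferase, was highest (164 CPM), followed by the polymerizing enzyme Chsy1 (77.1 CPM) and Csgalnact2 (55.2 CPM). The epimerases Dse and Dsel, which turn chondroitin into dermatan sulfate, were at 25.6 and 17.4 CPM. Of 9 genes of keratan sulfate and tyrosine sulfation 4 reached 10 CPM, with B3gnt2 at 58.6 and B4galt1 at 56.8 CPM, and the keratan sulfotransferase gene Chst1 was at 13.2 CPM. The list sums were 458 CPM for the linker, 484 CPM for chondroitin and dermatan sulfate and 177 CPM for keratan sulfate, against 121, 218 and 236 CPM in the other barcodes.

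Among the matrix partners of SLRPs, collagen II and VI chains were highest. Of 12 collagens 11 reached 10 CPM, led by Col2a1 (896 CPM), Col6a3 (841 CPM), Col6a1 (501 CPM) and Col6a2 (428 CPM), while Col1a2, Col3a1 and Col1a1, the chains of the fibrils that Dcn, Lum and Fmod coat in tendon and skin, were at 42.6, 22.3 and 17.0 CPM. Among 15 growth factor and receptor genes in the file 11 reached 10 CPM, led by Bmp2 (967 CPM), Tgfb2 (346 CPM) and Lrp1 (241 CPM), an endocytic receptor of Dcn. Of 12 proteases 8 reached 10 CPM, led by Mmp3, stromelysin-1, at 29653 CPM, then Htra1 (371 CPM), Mmp13 (341 CPM) and Adamts5 (226 CPM). Mmp3 and Prg4 were both more abundant than Dcn.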

How the data were processed

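The gene and hashtag UMI counts were deposited by the authors as a filtered Cell Ranger matrix (version 6.0.1 per the processing notes, 6.0.0 in the file header; build mm10), with no normalization. The conditions come from the hashtags in 1 library. Members and lists were chosen with earlier results of these data known.

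UMIs were scaled to 10000 per barcode, log transformed and clustered (scanpy 1.11.5, igraph 0.11.9; 2000 variable genes, 30 components, 15 neighbours, resolution 0.35, Louvain). The 8 genes and the 10 other genes of the wider family were left out of the clustering. The resolution was raised in steps until a set number of clusters (6) or groups (3 or 4) of at least 10 barcodes was reached. No barcode was removed and no doublet caller was run, beyond the hashtags. Conditions were called with HTODemux (Seurat 5.3.0, quantile 0.99, R 4.3.3). Levels are summed UMIs as CPM with exact Poisson intervals, and shares have Clopper-Pearson intervals (scipy 1.17.1). Counting steps were tested on simulated data. Named genes are the members, the highest of each fixed list, the 3 genes most like each member, the 5 highest and lowest for their sum and 5 leading genes per group. Alternatives changed the barcode choice, filter, weighting, thinning, correlation and hashtag rule. Leaving out endothelial marker barcodes, Lum-rich barcodes or both, another seed and 4 groups were added after seeing the data.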

Additional observations from a re-analysis of the deposited data

How the results depend on the processing

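The data hold 1 library and 1 pool per condition, so leaving out a replicate was not possible and intervals cover counting error only. No paired analysis was possible because the series has 1 library and no test was made. Of the 210 stromal-like barcodes 112 passed neither hashtag cutoff, which limits every OVX and sham value. The summed SLRP level of 17670 CPM became 17984 with barcodes chosen by marker UMIs, 17470 without the 10 deepest barcodes, 17904 without endothelial marker barcodes, 18161 without Lum-rich barcodes and 18410 without both. Its ratio to the other barcodes, 180.81, became 21.788 with marker UMIs (140 barcodes) and 136.16 with equal weight per barcode. With marker UMIs, stromal-like barcodes that missed the cut counted among the other barcodes. The OVX to sham ratio of the sum, 1.0782, became 1.0145 with marker UMIs, 1.2014 without the 10 deepest, 1.1549 without Lum-rich barcodes, 1.1619 without both sets, 1.2127 with equal weight and 0.9335 by hashtag share. The Lum ratio turned to 0.98854 without Lum-rich barcodes and 0.99458 without both sets. Of 45 such alternative ratios of 5 single members, 7 lay on the other side of 1, namely 1 each for Dcn, Bgn and Fmod (hashtag share) and 2 each for Lum and Prelp.

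The median rho of the 28 pairs, -0.027, became 0.095243 with marker UMIs, 0.049315 without the 10 deepest, 0.047646 without Lum-rich barcodes, 0.048231 thinned to 2000, 0.13713 unthinned, 0.053857 in group 1, 0.092714 in group 3, 0.12358 in OVX, 0.050979 in sham and 0.093119 with another seed, some of these over fewer pairs. That of the 6 pairs, 0.31715, became 0.15671 thinned to 2000 and 0.4033 unthinned. Of 267 values of single members or pairs, 193 stayed within the counting interval of the main level or ratio, or within 0.074 of the main rho. That rho limit was the same in settings with fewer barcodes. Keeping the family genes in the clustering gave values identical to the main ones, and these are counted among the 193. Causes were not tested.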
